A study of Danaus plexippus with 48 samples.

Results

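Light and dark hours were compared within long days, in brains of adult wild-type monarch butterflies (Danaus plexippus). Of 48 libraries in the series, 16 came from the LP (long photoperiod) group, and all 16 were used. They were chosen by the LP label alone. LP animals lived under 15 h of light and 9 h of dark at 21 degrees C from the egg on, with at least 7 days in that cycle as adults. No adult age is given. Each library was a pool of 3 brains freed of the pigmented photoreceptor layer of the retina. Samples were taken at zeitgeber times 1, 4, 7, 10 and 13 in the light (10 libraries, ZT counted in hours from lights-on) and at ZT 16, 19 and 22 in the dark (6 libraries). Poly(A) RNA was sequenced with a stranded kit as single reads of 50 bases. At each time there were 2 pools, and in LP replicate 1 was labelled female and replicate 2 male throughout, so replicate number and sex label cannot be told apart. Migrant is labelled in the same way, and SP the other way round (replicate 1 male, replicate 2 female). The p-values rest on these pools. Where a model gives each time its own mean, the error is the spread between the pools of a time. In the other models it also holds change between times that the model leaves out. The remaining libraries were 16 SP (wild-type, raised from eggs like LP but under 10 h light and 14 h dark, same kit) and 16 Migrant (wild-type, caught in fall, held under 11 h light and 13 h dark, another library kit), both at 21 degrees C and with 2 pools of 3 brains at each of the 8 times.

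The circadian clock of insects is a feedback loop in which transcription factors switch on their own repressors, so that many transcripts rise and fall once a day. In monarchs, cryptochromes provide both a light-sensitive photoreceptor and a repressor of this loop. A brain sampled around the day under a light cycle carries both clock-driven rhythms and direct responses to light. A difference between light and dark hours alone does not separate them. The files pair no gene identifier with a name, and the RefSeq table of assembly MEX_DaPlex matched 0 of the 15130 identifiers. Roles of single genes, clock gene lists and brain cell markers are therefore not given, and the tissue label was not checked against markers.

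Expression is given as FPKM (fragments per kilobase of transcript, scaled for depth) and was compared as log2(FPKM + 1). Differences on that scale understate the change of genes near 1 FPKM. LP libraries held an estimated 7.3 M to 10.6 M reads in genes (M, 1e6), with a mean of 9.03 M ± 1.23 in light (SD, n = 10) and 8.95 M ± 0.605 in dark (SD, n = 6). This difference was smaller than the spread between libraries (two-sided exact permutation test, p = 0.891). The first principal component, with 16.3% of the variance, separated the replicate numbers, with scores of -17.9 to -4.7 for replicate 1 and -4.4 to 22 for replicate 2. ZT1 replicate 2 stood apart on the second component (9.9%), with a score of 33.6 against -17.7 to 8.2 in the other libraries, and its pair at ZT1 had the lowest score. Counts without either ZT1 library are given beside the results they change.

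Mean levels in light and in dark hours were close to each other for most genes. In bulk brain tissue, fewer cells of a type and less RNA per cell cannot be told apart. With 1 mean for light and 1 for dark, 0 of 11518 tested genes were called (limma, adjusted p under 0.05, 0.0% of tested genes), and the lowest adjusted p was 0.0997. At an unadjusted p under 0.05 there were 699 genes (6.07%), 345 higher in light (3.0%) and 354 higher in dark (3.07%). The median absolute difference was 0.0494 on the log2 scale, and 99% of genes differed by less than 0.743. A difference of 1 or more was seen in 60 genes, of which 42 had a mean below 10 estimated reads per library. This held for 942 of all 11518 tested genes. The 95% interval of a difference, before adjustment over all genes, reached 0.144 to either side for the median gene. After adjustment much larger differences also went uncalled, such as 1.1 in DPOGS213925 (limma adjusted p = 0.441). The 0 calls therefore do not exclude differences above 0.144. Over all genes 46.6% were higher in light, with a median difference of -0.0056.

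The genes nearest to a call were well covered and had differences below 1. At an adjusted p under 0.1 (limma) there were 8 genes, 6 higher in light and 2 higher in dark, with differences from -0.27 to 0.64 and a mean of at least 959 estimated reads per library. Of the 8, 5 had a called 24 h cosine, beside 1.7% of all tested genes. The fitted cosine peaks of the 8 lay between ZT 5.33 and 7.2 for those higher in light, near mid-light (ZT 7.5). For those higher in dark they lay between ZT 18.4 and 20.1, near mid-dark (ZT 19.5). The 8 were selected by the light minus dark difference, which favours such peaks, so this is a description. The voom fit to estimated reads called 8 genes (6 higher in light), and 7 of them were among the 8 nearest to a call. Without ZT13, the last time in the light, the comparison of light with dark called 13 genes, 9 higher in light and 4 higher in dark. It called 4 without ZT13 replicate 1, 1 without ZT1 replicate 1 and 2 without ZT1 replicate 2.

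Giving each of the 8 times its own mean, and so taking change within light and within dark hours out of the error, yielded 16 genes (limma, 0.139% of tested genes). Of these, 9 were higher in light (0.0781%) and 7 higher in dark (0.0608%). Differences ran from 0.24 to 1.1 in absolute log2 value, with medians of 0.64 for those higher in light and 0.4 for those higher in dark. All 16 had a mean of at least 143 estimated reads per library. This model asks whether the 5 sampled light times differ on average from the 3 sampled dark times against the spread between the 2 pools of a time, and says nothing of how light times vary. The 9 genes higher in light lay on 7 scaffolds. Of these 9, 8 were highest at ZT7, beside 7.89% of all tested genes, and 6 were lowest at ZT16, beside 12.9%. They were selected for higher light means, so these counts are a description.

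DPOGS213925 (scaffold DPSCF300218, 286505 to 288396) had the highest light minus dark difference of the 16. Its FPKM in replicates 1 and 2 was 32.8 and 19.3 at ZT1, 19.9 and 22.8 at ZT4, and 31.3 and 27.2 at ZT7. It then went to 13.5 and 16.7 at ZT10 and to 7.9 and 8.09 at ZT13, while lights were still on. In the dark it was 5.63 and 5.6 at ZT16, 6.54 and 7.06 at ZT19, and 12.7 and 12.4 at ZT22. The morning libraries were thus the high ones, and the ZT13 libraries lay within the range of the dark libraries. The mean was 19.9 ± 8.78 in light (SD, n = 10) and 8.32 ± 3.32 in dark (SD, n = 6), a log2 difference of 1.1 ± 0.1 (SE, limma, 8 time means, adjusted p = 0.00416). With 2 means the same difference had an SE of 0.31 and a limma adjusted p of 0.441.

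DPOGS213901 (DPSCF300218, 295632 to 297523), the next tested gene on that scaffold, had the same profile. In light it ranged from 7.7 to 37.1 FPKM with a median of 19.3, and in dark from 5.46 to 13.2 with a median of 7.99. Its highest libraries were at ZT7 and ZT1 and its lowest at ZT16, and the groups overlapped. The log2 difference was 1.1 ± 0.14 (SE, limma, 8 time means, adjusted p = 0.0272), a call lost under 18 of 32 other settings. Both spans measure 1891 bases, and whether reads were shared between near-identical copies was not tested, so the values of both are uncertain.

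DPOGS203908 (DPSCF300005, 951403 to 967368) was lower in every light library than in any dark library. It had 16.1 and 28.5 FPKM at ZT1, 31.9 and 17.3 at ZT4, 11.8 and 12.8 at ZT7, and 21 and 21.9 at ZT10. At ZT13 it had reached 41.4 and 39.8, and in the dark it stayed between 42.1 and 47.5. The ZT13 libraries were the highest of the light and just below the dark range, the dark libraries lay close together and the other light libraries were spread. The log2 difference was -1 ± 0.14 (SE, limma, 8 time means, adjusted p = 0.0482), and -0.97 and -1.03 in replicates 1 and 2. With 2 means the limma adjusted p was 0.325, and with 8 time means the call was lost under 20 of 32 other settings. Light and dark libraries failed to overlap in 5 of 11518 genes (0.0434%), of which 4 were higher in light (0.0347%) and this gene was the 1 higher in dark (0.00868%).

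DPOGS209925 (DPSCF300180, 115531 to 130653) differed between times within light or dark hours (limma adjusted p = 0.0119). It lay between 4.66 and 7.29 FPKM in the 6 libraries of ZT1, ZT4 and ZT7, at 16.2 and 15.5 at ZT10, and at 19.6 and 28.5 at ZT13. In the dark it went from 18 and 21.6 at ZT16 to 15.1 and 17.3 at ZT19 and 13.4 and 13.7 at ZT22. The highest and the lowest libraries were both taken in the light. The mean was 11.6 ± 7.96 in light and 16.5 ± 3.12 in dark (SD, n = 10 and n = 6), a log2 difference of -0.68 ± 0.1 (SE, limma, 8 time means, adjusted p = 0.0484), while 2 means gave an SE of 0.34. The call was lost under 22 of 32 other settings.

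**Figure D1:**
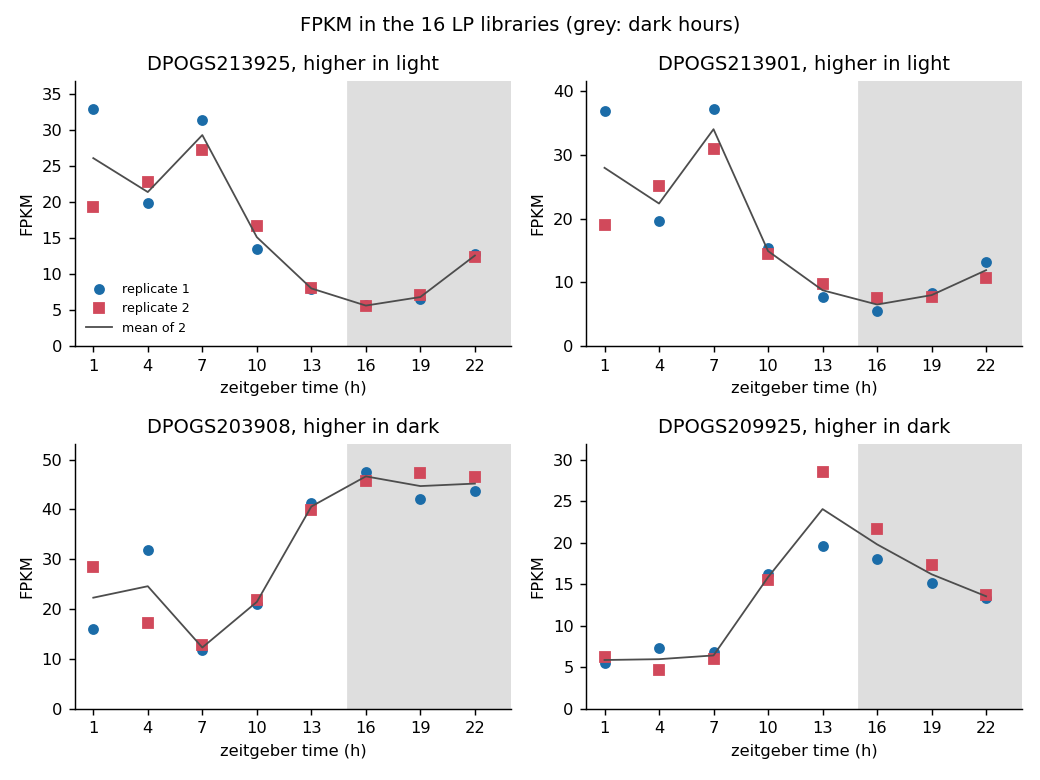
FPKM (linear axis from 0) against zeitgeber time for the 4 genes named by the largest light minus dark differences, with a point for each of the 16 LP libraries, a line through the mean of the 2 replicates and the dark hours in grey. At ZT13 the first pair had fallen to 7.7 to 9.81 FPKM and DPOGS203908 had risen to 39.8 and 41.4, before lights-off at ZT 15.

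The ZT13 libraries sat with the night in most of these genes. In 12 of the 16 the ZT13 mean was nearer to the mean of the dark times than to the mean of the other light times, beside 54.3% of all tested genes. At ZT7 this held for 0 of the 16, beside 43.9% of all tested genes. At ZT1 it held for 2 (47.4%), at ZT4 for 3 (48.1%) and at ZT10 for 3 (48.4%). At ZT22, the last dark time, 4 of the 16 were nearer to the light mean, beside 56.2% of all tested genes. The 16 were selected by the light minus dark difference, so these counts are a description.

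The count of 16 moved with the libraries used. It was 23 and 30 without ZT1 replicate 1 or 2, and 14 and 10 without ZT4 replicate 1 or 2. It was 4 without ZT7 replicate 1, ZT16 replicate 1 or ZT22 replicate 2, 5 without ZT22 replicate 1, and 6 without either ZT19 library. It was 7 without ZT13 replicate 1, 8 without ZT7 replicate 2, ZT10 replicate 2 or ZT13 replicate 2, and 9 without ZT10 replicate 1 or ZT16 replicate 2. Without whole time points it was 28 (ZT1), 12 (ZT4), 2 (ZT7), 7 (ZT10), 26 (ZT13), 2 (ZT16), 5 (ZT19) and 11 (ZT22). Median-ratio scaling gave 26 genes (19 higher in light) and the fit with no replicate block 10 (6 higher in light), beside 9 of 16 as reported above. Quantile normalization gave 27, of which 19 were higher in light.

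The 24 h cosine found many more genes than the split into light and dark. It was called for 196 genes (limma, 1.7% of tested genes), with log2 amplitudes from 0.1 to 1.34 and a median of 0.29, and 41 had an amplitude of 0.5 or more. Fitted peaks fell in the light for 155 genes and in the dark for 41. The light share of 79.1% compares with 62.5% of the day and with 62.7% of all tested genes. With 1 library left out it was called for 139 to 196 genes, and without ZT13 for 93. Other fits called 140 with no replicate block, 39 in the F test over 8 time means and 313 with voom.

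The day was divided into 4 windows of 6 h, with one centred on the middle of the light and one on the middle of the dark. Most peaks lay in the windows between these. From ZT 10.5 to 16.5, which holds lights-off, lay 90 of the 196 peaks (45.9%, beside 34.2% of all tested genes). From ZT 22.5 to 4.5, which holds lights-on, lay 69 (35.2%, beside 23.5%). The mid-light window, ZT 4.5 to 10.5, held 22 (11.2%, beside 19.4%), and the mid-dark window, ZT 16.5 to 22.5, held 15 (7.65%, beside 22.9%). By 3 h bins the most peaks, 60, lay at ZT 12 to 15 and the fewest, 4, at ZT 18 to 21.

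The light minus dark difference of a cosine gene followed its peak time, as the construction of both measures requires. Genes peaking in the lights-off window had a median absolute difference of 0.1 at a median amplitude of 0.27, and ranged from -0.76 to 0.63. Those of the lights-on window had a median of 0.16 at an amplitude of 0.33. The 22 mid-light genes had a median difference of 0.31 and all lay at or above 0.14, and the 15 mid-dark genes had a median of -0.25 and all lay at or below -0.15. With 2 means, 56 of the 196 reached an unadjusted p under 0.05 (limma), beside 6.07% of all tested genes. Among the 56 were all 22 mid-light and 13 of the 15 mid-dark genes, whose peak times favour such a difference. Of the 16 genes called with 8 time means, 15 also had a called cosine, beside 1.7% of all tested genes. Both calls used the same libraries, so this overlap is a description.

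**Figure D2:**
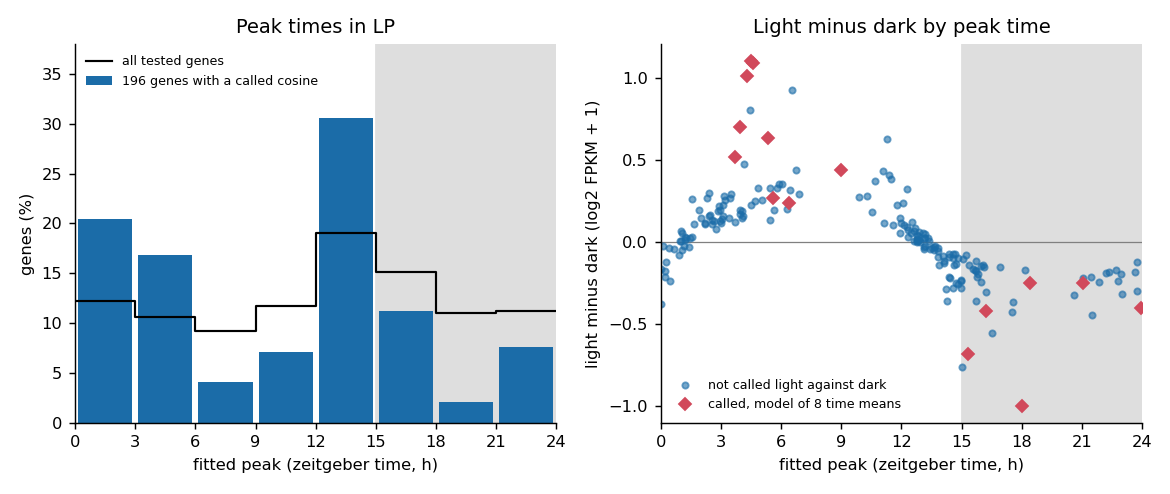
Left, the share of the 196 cosine genes (bars) and of all 11518 tested genes (line) by fitted peak in 3 h bins of zeitgeber time. Right, the light minus dark difference on the log2(FPKM + 1) scale of each of the 196 genes by its peak, with red diamonds for those called in the model of 8 time means and dark hours in grey. Few peaks lie at ZT 6 to 9 (8 genes) or ZT 18 to 21 (4 genes), and many at ZT 12 to 15 (60 genes), where differences pass through 0.

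DPOGS204253 (DPSCF300046, 393502 to 396682) and DPOGS204644, described below, had the lowest adjusted p among cosine genes with a peak in light (2.26e-06 each, limma). The values here are those of DPOGS204253. This gene lay between 157 and 178 FPKM in the 6 libraries of ZT1, ZT4 and ZT7, and at 106 and 122 at ZT10. It was 79 and 96.5 at ZT13, reached its lowest values of 70.8 and 73.2 at ZT16, and rose through the dark to 119 and 127 at ZT22. The morning libraries were all above every other library. Its amplitude was 0.61 ± 0.04 (SE) with a peak at ZT 3.71 (limma adjusted p = 2.26e-06). The light minus dark difference was 0.52, with an SE of 0.05 in the model of 8 time means (limma adjusted p = 0.00469) and 0.2 with 2 means.

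DPOGS213552 (DPSCF300033, 207603 to 214271) had the lowest p among cosine genes with a peak in the dark. It was measured at 651 to 737 FPKM in the 6 libraries of ZT1, ZT4 and ZT7, at 967 and 839 at ZT10 and at 1200 and 1030 at ZT13. The dark libraries lay between 991 and 1210, highest at ZT16. Its ZT13 values were therefore inside the dark range while those of ZT1 to ZT10 were below it. The amplitude was 0.42 ± 0.03 (SE), with a peak at ZT 16.2 (limma adjusted p = 1.39e-05). DPOGS209925, described above, had the second smallest p in the dark, with a peak at ZT 15.3 and an amplitude of 0.95 ± 0.1 (SE, limma adjusted p = 0.000204).

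A joint test of the light times and the dark times, each around their own mean, covered change within hours. Times differed in 36 genes (limma F test, 6 degrees of freedom, 0.313% of tested genes). Of these, 34 also had a called cosine (94.4%, beside 1.7% of all tested genes), which is 17.3% of the 196. The other 2 had a mean below 10 estimated reads per library. Both tests used the same libraries, so the overlap is a description. Tested apart, which was chosen after seeing the data, the light times differed in 37 genes, 34 of them among the 36 (limma). The dark times differed in 4 genes, all 4 also called in the light times (limma). These tests are unlike, with 5 light times (4 degrees of freedom) against 3 dark times (2 degrees of freedom). At an unadjusted p under 0.05 (limma) there were 840 genes for the light times and 813 for the dark times, so the counts do not rank change in light and dark. Early light (ZT1 and ZT4) was above late light (ZT10 and ZT13) in 18 of the 36 and below it in the others. The count was 23 with no replicate block, 23 without ZT4 replicate 2 or ZT13 replicate 2, 22 without ZT22 replicate 1, 22 without ZT4 and 21 without ZT13. It rose to 48 without ZT1 replicate 1, 39 without ZT1 replicate 2 and 40 without ZT1.

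Early and late light were compared in the 196 cosine genes, which the cosine test also selected for change over the day, so these values are a description. The median absolute difference of early from late light was 0.434, beside 0.164 for light minus dark. In the 36 genes, selected for change within hours, these medians were 0.973 and 0.281. Early minus late light was the larger of these in 166 of the 196 (84.7%), beside 65.2% of all tested genes, where the medians were 0.082 and 0.049. A light and a dark mean held a median of 12.9% of the spread between the 8 time means in the cosine genes and 7.89% in all tested genes. They held over 50% in 24 of the 196 genes (12.2%) and in 5.53% of all tested genes. Early and late light are means of 2 times each and light and dark of 5 and 3, so their noise differs.

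**Figure D3:**
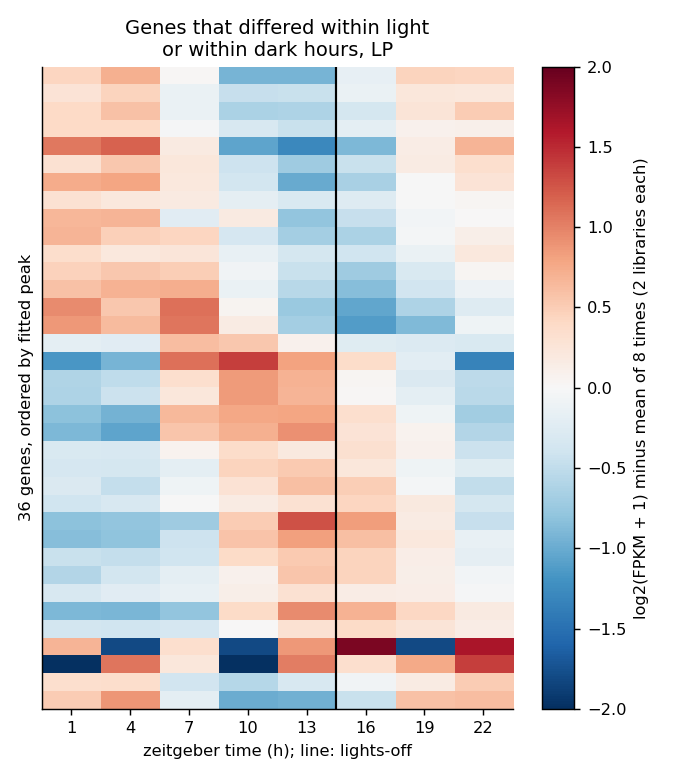
Mean log2(FPKM + 1) of 2 libraries at each of 8 times, minus the gene's mean over the times, for the 36 genes that differed within light or within dark hours, ordered by fitted peak from the top. Red is above and blue below the mean, colours saturate at 2, and the black line marks lights-off. The mean of ZT1 and ZT4 is above that of ZT10 and ZT13 in 18 genes and below it in the others, and the 2 genes with the strongest alternation between times are those below 10 estimated reads.

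Steps between neighbouring times were compared, including those across the light transitions. For the cosine genes, the median absolute step within the light was 0.083 from ZT1 to ZT4, 0.125 from ZT4 to ZT7, 0.212 from ZT7 to ZT10 and 0.152 from ZT10 to ZT13. It was 0.124 across lights-off (ZT13 to ZT16) and 0.15 across lights-on (ZT22 to ZT1), and within the dark 0.175 and 0.158. The steps across the transitions thus lay within the range of those in the light. The 196 were selected for fit to a smooth cosine, which disfavours a sudden step at a transition, so these values are a description. Over all tested genes the steps ran from 0.079 to 0.106. The largest, 0.106, were those from ZT22 to ZT1 and from ZT1 to ZT4, and ZT1 replicate 2 stood apart on the second principal component. The largest step of a gene lay between ZT7 and ZT10 in 42 of the 196 (21.4%, beside 9.84% of all tested genes), across lights-off in 14 (7.14%, beside 11.5%) and across lights-on in 30 (15.3%, beside 16.6%). It lay between ZT1 and ZT4 in 3 (1.53%, beside 16.5%).

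DPOGS204644 (DPSCF300462, 48480 to 60775) and DPOGS204552 had the lowest adjusted p in the test of times within hours (0.000271 each, limma). In DPOGS204644 light and dark means were close to each other. It was 128 and 166 FPKM at ZT1 and 170 and 148 at ZT4, then 73.3 and 84.7 at ZT7, 31.6 and 34.7 at ZT10, and 22.7 and 34.6 at ZT13. From 33.3 and 41.5 at ZT16 it climbed to 76.2 and 78.4 at ZT19 and to 102 and 125 at ZT22. Its extremes thus both fell in the light, and its level rose through the dark times. No library lies between ZT13 and ZT16, so the start of the rise cannot be placed before or after lights-off. The mean was 89.4 ± 59.1 in light and 76 ± 34.9 in dark (SD, n = 10 and n = 6), a log2 difference of 0.03 ± 0.49 (SE, limma, 2 means, adjusted p = 0.997), with a cosine amplitude of 1.26 ± 0.08.

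DPOGS204552 (DPSCF300297, 246104 to 257344) had its extremes in the light as well. It was highest at ZT4, at 158 and 140 FPKM, and had fallen to 42.4 and 37.2 at ZT10 and 40.2 and 41.5 at ZT13. It was 68.2 and 49.8 at ZT16 and had returned to 139 and 104 by ZT19, in the dark. The low libraries therefore ran from late light into the first dark time. With 8 time means its light minus dark difference was -0.4 ± 0.06 (SE, limma adjusted p = 0.0482), and with 2 means the SE was 0.36.

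**Figure D4:**
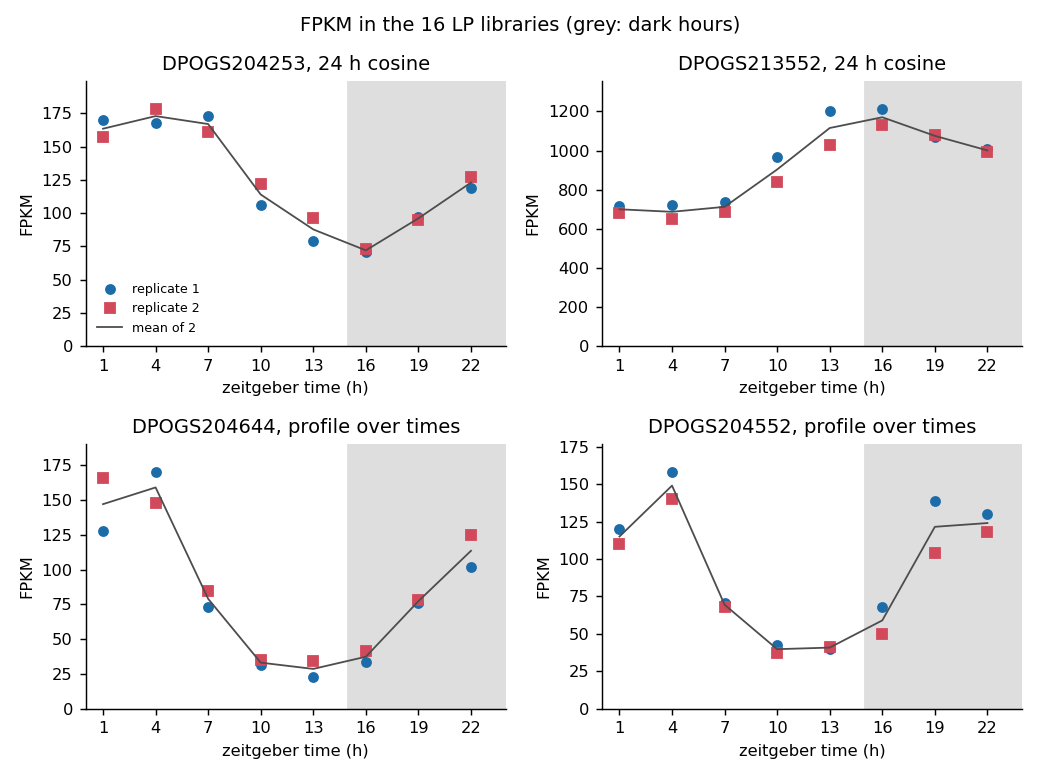
FPKM (linear axis from 0) against zeitgeber time in the 16 LP libraries for 4 genes named by the cosine and by the test of times within hours, drawn as in the plot of the light and dark genes. DPOGS204644 and DPOGS204552 change most between ZT4 and ZT10, with lights on throughout.

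Genes with a called cosine lay on 115 scaffolds and were sometimes neighbours. Among 10748 pairs of neighbouring tested genes, both had a called cosine in 15, and in 13 of these the peaks lay within 3 h of each other (median gap 0.441 h). The pairs held 28 of the 196 genes (14.3%), the DPOGS213925 and DPOGS213901 pair among them. Of single tested genes 1.7% had a called cosine. How often cosine genes that are not neighbours peaked within 3 h of each other was not counted. The lights-off and lights-on windows held 90 and 69 of the 196 peaks, so close peaks are common and the 13 are a description. Whether neighbours shared reads was not tested. The genomic span was a median of 6282 bases in the cosine genes and 3452 in all tested genes. Median mean FPKM was 40.8 and 21.2. A mean below 10 estimated reads per library was found in 3 of the 196, beside 942 of all 11518 tested genes. The part of level and depth in the calls was not tested.

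Pools labelled female and male were compared for their light minus dark difference. It differed between replicate 1 and replicate 2 for 0 genes (limma, 0.0% of tested genes, 317 at an unadjusted p under 0.05). For DPOGS213925 it was 1.16 and 1.05, for DPOGS209925 -0.6 and -0.77, and for DPOGS204253 0.5 and 0.54 in replicates 1 and 2. Without ZT19, and without ZT22, 1 gene each was called.

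SP and Migrant libraries, none of which entered the LP fits, were split by their own lights-off, leaving out the 2 SP libraries taken at lights-off itself. The 16 genes called in LP with 8 time means had the same sign of light minus dark in SP (16 of 16) and in Migrant (16 of 16), beside 54.2% and 56.7% of all tested genes. Some of these signs are uncertain. A difference of -0.0545 ± 0.1471 in SP and another of -0.0667 ± 0.1068 in Migrant (SE, limma) were smaller than their SE. The 3 SP light libraries of replicate 1 stood apart, with 11.1% to 12% of estimated reads in their 10 most abundant genes against 8.3% to 9.8% in replicate 2. Without these 3, 14 of the 16 had the same sign in SP, beside 52.2% of all tested genes. Migrant ZT22 replicate 1 stood apart as well (9.17% against 5.87% to 6.91% in the other Migrant libraries), and without ZT22 the sign was the same for 16 of 16, beside 51.4%. Both of these were added after seeing the data. Of the 196 cosine genes 157 (80.1%) had the same sign in SP and 141 (71.9%) in Migrant, and without the same libraries 135 (68.9%) and 147 (75.0%). The median absolute difference of the 16 was 0.519 in SP and 0.42 in Migrant, beside 0.48 in LP, and the 16 include neighbouring genes.

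The levels of 2 of these genes in the other groups were as follows. DPOGS203908 had 8.4 ± 3.23 FPKM in SP light (SD, n = 6) and 25.8 ± 5.86 in SP dark (SD, n = 8), with ranges of 4.96 to 12.4 and 13.4 to 32. The SP light libraries of replicate 1 held 5.22, 4.96 and 7.18 at ZT1, ZT4 and ZT7, and those of replicate 2 held 12.4, 11.9 and 8.69. In Migrant it had 17.4 ± 8.54 in light and 34.6 ± 10.4 in dark (SD, n = 8 each), where the ranges overlapped. The log2 differences were -1.55 ± 0.26 in SP and -0.99 ± 0.24 in Migrant (SE, limma), and -1.22 ± 0.38 in SP without the replicate 1 light libraries. DPOGS213925 had 34 ± 14.2 and 14.5 ± 6.75 FPKM in SP light and dark, and 26.5 ± 10 and 19.1 ± 16.4 in Migrant, with log2 differences of 1.2 ± 0.35 and 0.65 ± 0.32. Its SP light values at ZT1 were 56.7 in replicate 1 and 21 in replicate 2. The difference was 0.93 ± 0.5 in SP without the replicate 1 light libraries and 1.05 ± 0.31 in Migrant without ZT22.

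A difference of the light minus dark value between groups was tested itself. It was called for 0 genes between LP and SP (limma, 0.0%, 504 at an unadjusted p under 0.05) and for 0 between LP and Migrant (limma, 0.0%, 209 at an unadjusted p under 0.05). With library quality weights the counts were 426 for LP against SP, 408 of them higher in LP, and 2 for LP against Migrant. Relative to the LP mean, the median log2 level over tested genes was -0.288, -0.214 and -0.156 in the SP light libraries of replicate 1. In the SP dark libraries it lay between -0.054 and 0.072. No scaling beyond FPKM was used in this fit, and the part of that shift in the 408 was not tested. Without LP ZT1 replicate 2, 1 gene was called between LP and SP. Without the SP light libraries of replicate 1, 0 genes were called between LP and SP (1020 at an unadjusted p under 0.05). With all groups split at ZT15, 0 genes were called between LP and SP and 0 between LP and Migrant. Both groups differ from LP in day length, Migrant also in kit and origin, and SP also in the libraries that stood apart. The light and dark means hold unlike times as well, since ZT13 is light in LP and dark in SP and Migrant. ZT10 is in the light mean of LP and left out in SP. A test that missed its threshold does not show equal differences between light and dark.

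**Figure D5:**
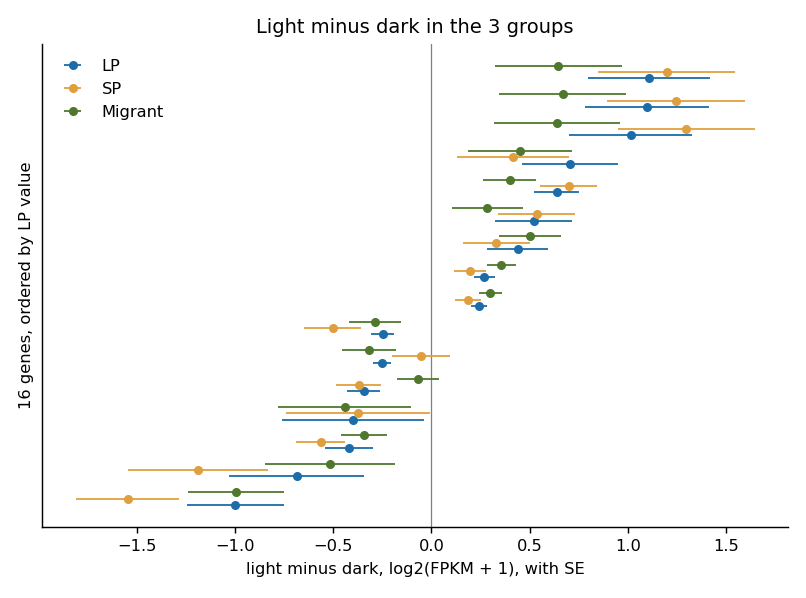
Light minus dark difference on the log2(FPKM + 1) scale with its SE in LP, SP and Migrant for the 16 genes called in LP with 8 time means, ordered by the LP value. LP bars are SE of the fit with 2 means and the others come from the fit to 46 libraries. All 16 genes lie on the same side of 0 in each group with all libraries, some with bars that reach across 0. Without the light libraries of replicate 1, 14 of 16 do in SP.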

How the data were processed

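FPKM values and their confidence limits were deposited by the authors for 15130 genes per library, made with CASAVA 1.8.2, TopHat2 and Cufflinks per the submitters' processing notes. No genome build is named in the sources used here. Coordinates are those of the deposited tables. Tables were joined by identifier. Tests covered the 11518 genes whose FPKM averaged at least 0.5 in LP, and left out 3612. Fits used limma 3.58.1 in R 4.3.3 on log2(FPKM + 1), with trend and robust options, replicate number as a block and Benjamini-Hochberg adjustment over all tested genes. The comparison between groups used 46 libraries, with a replicate term for each group of its own. Tables and plots used Python 3.11.15, pandas 2.3.3, SciPy 1.17.1 and matplotlib 3.10.9.

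Reads were estimated from the distance of FPKM to its upper limit, and 82.5% to 85% per LP library of values under 30 lay within 0.05 of a whole number. They served only for depth, for a minimum of 10 reads in named genes and for voom. Some models were tested on simulated data, but not the one that gives each time its own mean. Rates of recovery and of false calls are not reported.

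Members and lists were chosen with earlier results of these data known. Genes were named by largest difference among calls that averaged at least 1 FPKM and kept 1 direction in both replicates, or by smallest p. The comparison with 2 means called none, so the rule was applied to the model with 8 time means. At most 2 identifiers per direction and comparison are printed, since the files pair none with a name. Replicates are separate pools of 3 brains. The replicate number marks the sex label in LP, and deviations from the time means correlated between same-numbered libraries at a median of 0.182 (from -0.01 to 0.324 over 28 pairs of times). Sequences are not reported.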

Additional observations from a re-analysis of the deposited data

How the results depend on the processing

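Results held unevenly across settings. The 2-mean comparison of light with dark in LP called 0 genes in all but these: 2 with library quality weights, 16 with 8 time means, 8 with voom, 0 to 4 with 1 library left out and 0 to 13 with 1 time point left out. The 16 of the model of 8 time means became 9 with no filter, 26 with median-ratio scaling, 27 with quantile normalization, 7 with no trend and robust step, 10 with no replicate block, 55 with voom, 4 to 30 without a library and 2 to 28 without a time point. These settings for that model were added after the data were seen. The call of DPOGS213925 was lost under 2 of 32 settings, and those of DPOGS213901, DPOGS203908 and DPOGS209925 under 18, 20 and 22, all in the same direction. The 196 cosine genes became 39 in the F test over 8 times, 109 with 24 h and 12 h cosines, 313 with voom, 140 with no replicate block, 139 to 196 without a library and 93 to 173 without a time point. The 36 genes that differed within hours became 23 with no replicate block, 4 with the dark times alone, 37 with the light times alone, 22 to 48 without a library and 21 to 40 without a time point. Between replicate numbers, 0 to 1 genes were called with a library or time point left out. For LP against SP this was 0 to 1, and 426 with quality weights. For LP against Migrant it was 0 to 0, and 2 with quality weights. The cause of these shifts was not tested.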

Other observations

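The 8 genes nearest to a call in the comparison of 2 means were set beside the 16 called with 8 time means. The comparison of 2 means counts change within light or dark hours as error and the model of 8 time means does not, so the models favour different profiles. Of the 8, 3 were among the 16. Without ZT13 the comparison of 2 means called 13 genes, and 7 of these were among the 16.

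Of 22 groups of libraries checked for a single library far from the others (the named genes, reads, genes above 0 and the share of the 10 most abundant genes, each in light and in dark), 0 held one. The named genes change over the times pooled in a group, which widens its spread, so the check could miss a deviating library. Principal component scores, on which ZT1 replicate 2 stood apart, were not among these checks. The 10 most abundant genes held 7.28% ± 0.188 of estimated reads in light (SD, n = 10) and 7.26% ± 0.212 in dark (SD, n = 6), with p = 0.856 in a two-sided exact permutation test.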
